A study of Danio rerio with 6 samples.

Results

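Cells of the zebrafish pituitary at 5 months of age were compared with cells at 37 days post-fertilization (dpf) after the wells that carry haemoglobin RNA had been left out. A well was kept when it held at least 400 unique molecular identifiers (UMIs, the counts of tagged RNA molecules, spike-in rows not counted) and when the globin rows hbaa1, hbaa2, hbba1, hbba2 and HBZ (1 of many) together made up under 0.5% of them. The rule kept 257 and 174 wells at 5 months and 180 and 228 wells at 37 dpf, 839 of the 1081 wells of at least 400 UMIs at these ages and of 1390 in the series. It left out 242 wells, all at 37 dpf, which were 42.1% and 32.7% of the wells on those plates. On the 37 dpf plates 101 and 73 kept wells lay just inside the limit, with 0.25% to 0.5% globin, and 37 and 17 wells lay just outside it, below 0.75%. Counts were then summed per plate.

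The 5-month fish were males injected with the fluorescent dipeptide β-Ala-Lys-Nε-AMCA at 4.6 mM, 10 µl per fish, and the 37 dpf fish were juveniles of unstated sex injected with 5 µl. Both ages were strain AB carrying Tg(pomca:EGFP), in which the pomca promoter drives green fluorescent protein, and 5 pituitaries were pooled at each age 3 hours after injection. The cells, labelled as neurohypophysis-enriched, were stained with propidium iodide, sorted into 384-well plates and sequenced by MARS-seq, 2 plates from the 1 pool of each age. Another pool, of 7-month AB males with the same transgene injected with 10 µl, also on 2 plates, entered the same fit, and its values are given only beside some results. Age therefore cannot be told apart from sex, injected volume and pool, nor from the sequencing run, because the adult plates are listed under batch SB390, 37 dpf plate 2 under SB350 and 37 dpf plate 1 under none.

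The pituitary joins a posterior lobe, in which glia called pituicytes surround the axon endings of hypothalamic neurons, to an anterior lobe of hormone-secreting cells. Endocrine cells store their hormones in dense-core granules built with secretogranins and chromogranins, and transcription factors such as the six3 genes pattern the gland. Gonadotropin-producing cells mature around puberty, while a juvenile still builds skin and skull cartilage as it grows.

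The kept wells held 439266 and 261477 UMIs at 5 months and 458832 and 510250 at 37 dpf, with median wells of 1200 and 1084.5 UMIs at 5 months and 1812 and 1428.5 at 37 dpf. Mitochondrial and AC024175 rows took 32.2% and 38.6% of the UMIs at 5 months and 16.8% and 19.9% at 37 dpf. The mitochondrial rows alone took 4.49% and 5.17% at 5 months and 4.55% and 4.37% at 37 dpf. The difference between the ages thus lay mainly in the AC024175 rows, which stay in the total that CPM divides by. No well name was shared between plates. A count of 0 on a plate allows, at 3 counts, up to 6.83 and 11.5 CPM (a gene's count per 1000000 UMIs of a plate's kept wells) at 5 months and 6.54 and 5.88 CPM at 37 dpf. Such limits cover counting error only.

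The kept wells of the ages differed in kind. Wells in which pituitary hormone genes made up at least 5% of UMIs numbered 31 and 16 at 5 months and 0 on both 37 dpf plates. Wells with at least 2% of keratin and epidermis genes numbered 7 and 9 at 5 months and 34 and 34 at 37 dpf, and wells with at least 2% of cartilage and bone genes numbered 0 and 0 at 5 months and 31 and 42 at 37 dpf. Macrophage-rich wells, with at least 2% of macrophage genes, were present at both ages, 18 and 10 at 5 months and 13 and 19 at 37 dpf. They held 12.4% and 14.6% of the UMIs at 5 months and 5.38% and 8.36% at 37 dpf.

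The globin limit did not remove all blood-lineage RNA. Of the 34 rows of the blood list 15 are globin rows, among them those the limit used, and these are set aside here. The other 19 summed to 77.4 and 76.5 CPM at 5 months, against 1606 and 1664 CPM at 37 dpf, and 9 of the 10 tested were lower at 5 months. Wells with at least 1 UMI of myb, tal1 or lmo2, transcriptional regulator genes of blood progenitors, numbered 1 and 1 at 5 months and 49 and 46 at 37 dpf. At 37 dpf those wells held 53.1% and 45.3% of all UMIs and were deep, with medians of 3989 and 4925 UMIs against 1230 and 1215 UMIs in the other 37 dpf wells. Of these 49 and 46 wells 16 and 13 were also keratin or cartilage wells. The median globin share of the 49 and 46 wells was 0.288% and 0.187%, against 0.269% and 0.194% in the other 37 dpf wells. The part of depth in which wells hold such a UMI was not tested. After every well was thinned to 400 UMIs, 16 and 12 of them still held one, 8.89% and 5.26% of the 37 dpf wells. Between the ages, fewer cells of a type and less RNA of a gene per cell cannot be told apart in these plate sums.

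**Figure D1:**
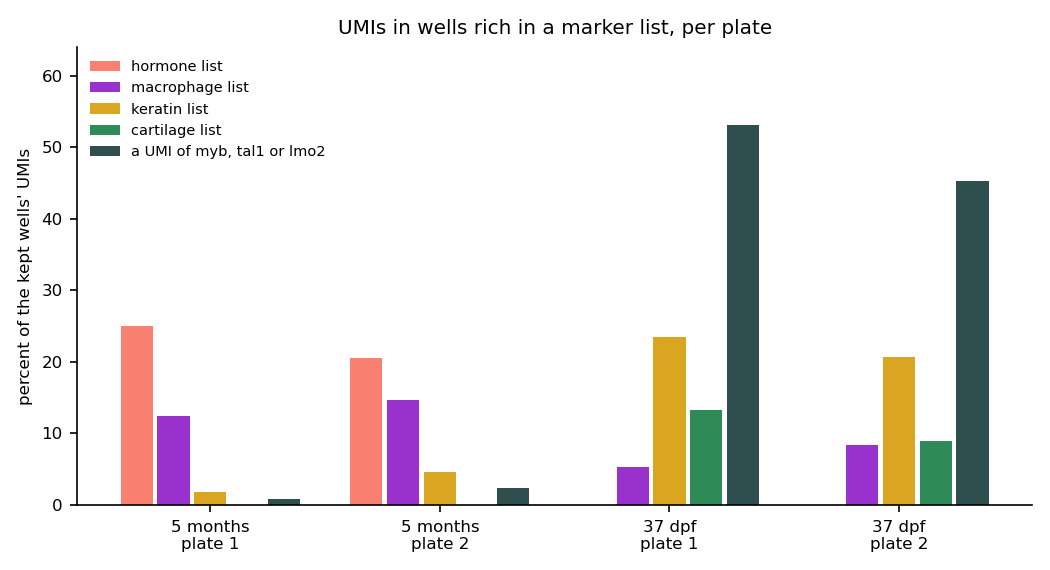
Percent of the kept wells' UMIs (vertical axis) in wells rich in hormone, macrophage, keratin or cartilage genes and in wells with a UMI of myb, tal1 or lmo2, for the 2 plates of 5 months and the 2 plates of 37 dpf. The hormone bars stand at 25.1% and 20.6% at 5 months and at 0 at 37 dpf, and the myb, tal1 or lmo2 bars reach 53.1% and 45.3% at 37 dpf.

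The labelled tissue was checked against the marker genes of its cells. The pituicyte list summed to 4539 and 4406 CPM at 5 months, against 554 and 715 CPM at 37 dpf, and cyp26b1 was most of it at 5 months. Of 7 tested pituicyte genes 3 were higher and 1 lower. The hypothalamic regulator gene rx3 had 11 and 4 UMIs at 5 months and 1 and 0 at 37 dpf, and nkx2.1 had 11 and 4 at 5 months and 2 and 0 at 37 dpf. The neurohypophyseal peptide gene avp had no UMI on any of the 4 plates, and oxt had 4 and 2 UMIs at 5 months and 4 and 6 at 37 dpf. The reporter's own gene pomca had 2 and 0 UMIs at 5 months and 0 and 2 at 37 dpf. The peptide transporter gene slc15a2, whose product takes up dipeptides such as the one injected, had 1 and 1 UMIs at 5 months and 6 and 8 at 37 dpf, too few to enter the test.

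Among 4327 genes with enough counts, 1198 differed between 5 months and 37 dpf, 631 higher and 567 lower at 5 months at an adjusted p under 0.05 (quasi-likelihood test of edgeR, adjustment after Benjamini and Hochberg), the meaning of called from here on. These were 27.7% of the genes tested, 14.6% higher and 13.1% lower. Outside the lists of pituitary hormones, blood, keratin and epidermis, and cartilage and bone, 1140 genes were called, 621 higher and 519 lower. Because the plates of an age share a pool, the test describes plates and not fish. The balance of the directions depended on scaling. With the trimmed-mean scaling used here (TMM), 52.7% of the calls were higher. Scaling to library size alone shifted the median gene by -0.31 log2 units and gave 1302 calls, 449 higher (34.5%) and 853 lower. They were 30.1% of the genes tested, 10.4% higher and 19.7% lower. These shares stand behind the list counts with library-size scaling below. DESeq2 called 650 genes, 15.0%. With a plate left out edgeR called 494 genes without 5-month plate 1, 663 without 5-month plate 2, 691 without 37 dpf plate 1 and 843 without 37 dpf plate 2. The same 4 counts, in this order, follow the counts of some lists below as leave-one-out. Lists given without them are not thereby stable, since genes of such lists also lost their call with a plate left out. The 4 fits tested 4417, 6809, 4330 and 4371 genes, in the same order. A leave-one-out count can therefore exceed the number of list genes tested with all plates.

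The kinds of wells bore on the count. Without the hormone, keratin and cartilage wells 811 of 3089 genes were called, 26.3%. Without the macrophage-rich wells 1164 of 3737 were called, 31.1%. In the macrophage-rich wells alone none of 424 genes was called by edgeR, 0.0%, and 54 had an unadjusted p under 0.05. Without the myb, tal1 and lmo2 wells, a setting chosen like the macrophage ones after seeing the data, 574 of 2919 genes were called, 19.7%, with 9.9% higher and 9.76% lower. Of these calls 522 had been called in the same direction with all wells. With the hormone, keratin and cartilage wells also left out, 313 of 2279 genes were called, 13.7%, with 7.94% higher and 5.79% lower, and 285 of these had been called in the same direction before. These last are referred to below as the remaining wells: 219 and 148 wells at 5 months and 83 and 120 at 37 dpf.

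**Figure D2:**
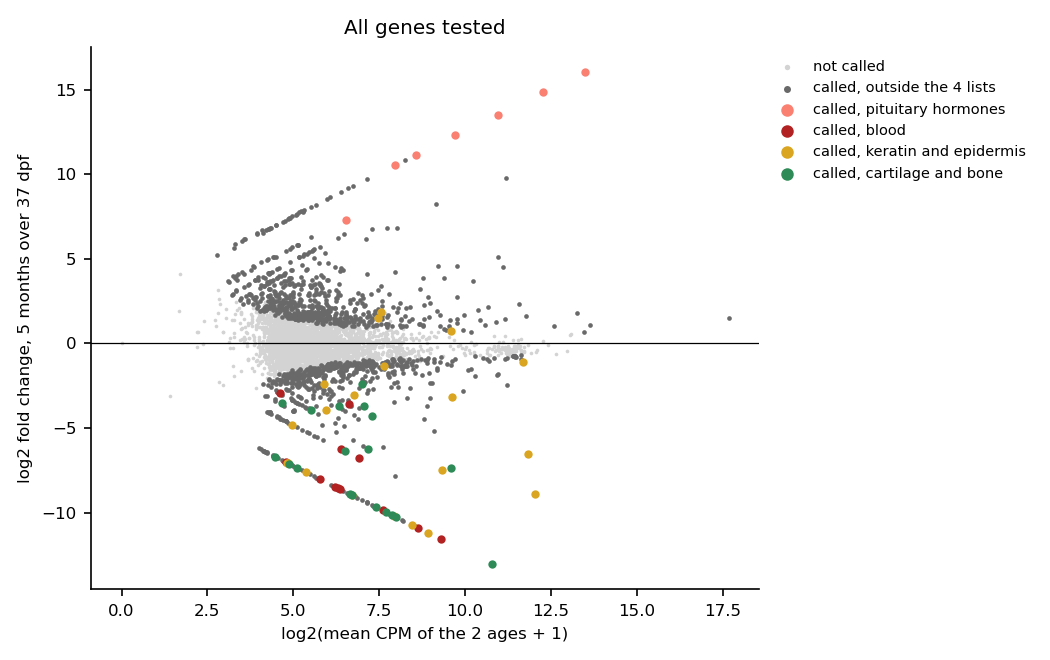
Log2 fold change of 5 months over 37 dpf (vertical axis) against the mean level of the gene, as log2 of mean CPM plus 1 (horizontal axis), for the 4327 genes tested; each point is a gene. The called genes of the hormone list lie at the top and those of the blood, keratin and cartilage lists mostly at the bottom, while the 1140 other called genes, 621 higher and 519 lower, spread along both sides. Points in straight rows at the edges are genes with no UMI at 1 age, whose fitted values depend on the prior count.

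The genes outside these lists with the largest increases at 5 months, 11 of 12 described here, were endocrine, glial, immune and secreted-protein genes. The iron carrier gene tfa (transferrin) had 685 and 528 CPM at 5 months, against no UMI at 37 dpf, at least 202-fold higher (edgeR, Benjamini-Hochberg adjusted p = 2.45e-05). The granule protein gene scg3 (secretogranin III) had 4810.3 and 4608 CPM at 5 months, against 4.36 and 7.84 CPM at 37 dpf (log2 fold change 9.79 ± 0.41, SE). Both adult plates stood far above the juvenile plates for these genes. At 5 months 88.8% of the tfa UMIs and 87.8% of the scg3 UMIs lay in the hormone wells.

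Another 6 of these genes had no UMI at 37 dpf and lay mostly in hormone wells. The synaptic release gene cplx1 (complexin) had 209 and 352 CPM at 5 months, at least 84.8-fold higher, and c2cd4a had 234 and 187 CPM, at least 70.07-fold higher. The granule gene chga (chromogranin A) had 107 and 142 CPM at 5 months, at least 38.7-fold higher. The endocrine transcription factor gene insm1a had 148 and 119 CPM at 5 months, at least 44.3-fold higher. These genes were thus seen on both 5-month plates and on neither 37 dpf plate. The activity-dependent transcription factor gene npas4a had 229.9 and 153 CPM at 5 months, at least 65.0-fold higher, and the dopamine receptor gene drd4-rs 95.6 and 57.4 CPM, at least 26.3-fold higher. Between 61.7% (npas4a) and 89.5% (drd4-rs) of the 5-month UMIs of the 6 genes lay in the hormone wells. At 7 months, where hormone wells numbered 2 and 4, cplx1 had 0 and 36.6 CPM and npas4a 113 and 48.8 CPM.

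Another 3 lay mainly outside the hormone wells. The brain aromatase gene cyp19a1b, whose product makes estradiol in fish radial glia and pituitary, had 1109 and 1136 CPM at 5 months, against 0 and 7.84 CPM at 37 dpf (log2 fold change 8.27 ± 0.51, SE; edgeR, Benjamini-Hochberg adjusted p = 1.47e-08). It had 2745 and 2636 CPM at 7 months. Of its 5-month UMIs 97.2% lay in wells of none of the 4 kinds, that is, in wells without high hormone, macrophage, keratin or cartilage RNA. Its levels on the 37 dpf plates stayed below 8 CPM. The secreted glycoprotein gene myoc (myocilin) had 114 and 30.6 CPM at 5 months, against no UMI at 37 dpf, at least 26.7-fold higher, with 67.2% in such wells. The class II antigen presentation gene mhc2dab had 93.3 and 61.2 CPM at 5 months, against no UMI at 37 dpf, at least 26.3-fold higher, with 89.5% of its UMIs in macrophage-rich wells. Few wells lay behind these levels, 13 and 4 on the 5-month plates for myoc and 11 and 3 for mhc2dab. A single well held 42% and 50% of the myoc UMIs and 39.0% and 43.75% of the mhc2dab UMIs. In macrophage-rich wells alone mhc2dab was at 7.06 ± 1.77 (log2 ± SE), a fitted value that depends on the prior count. It was not called there (edgeR, Benjamini-Hochberg adjusted p = 0.154), and neither was any other of the 424 genes tested in those few wells.

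**Figure D3:**
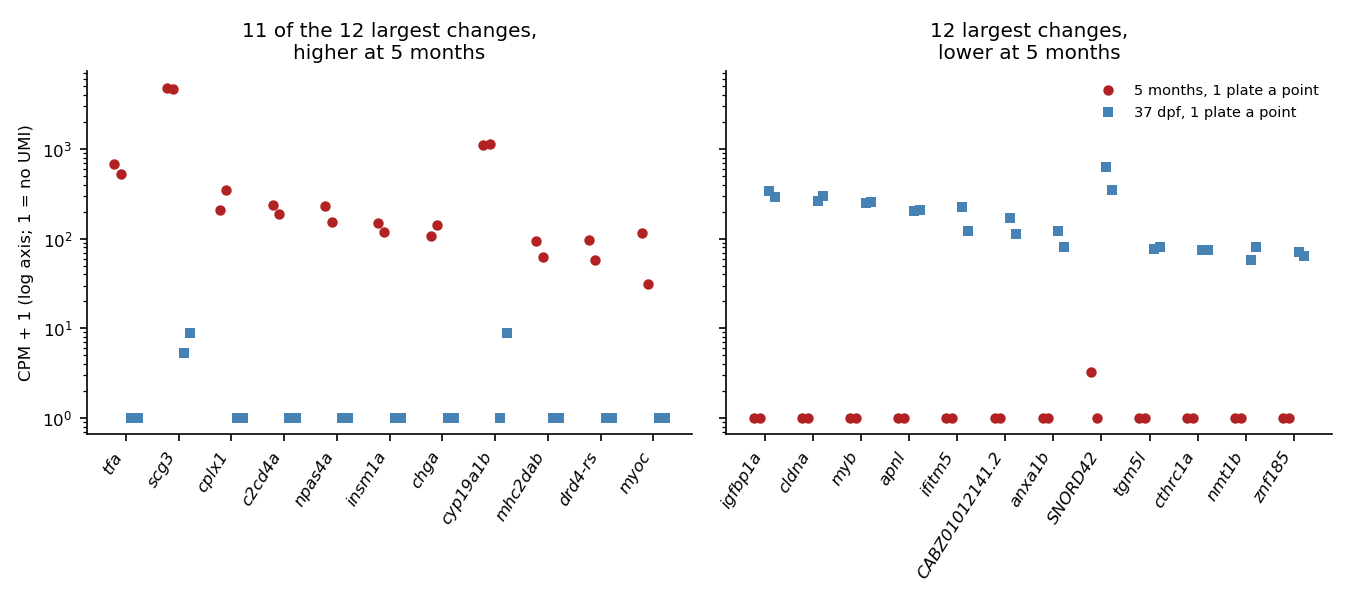
Level of 11 of the 12 genes with the largest increase and of the 12 with the largest decrease, as CPM plus 1 on a log axis, with 1 point per plate; circles are 5 months and squares 37 dpf. Higher genes (left) run from 30.6 CPM (myoc) to 4810.3 CPM (scg3) at 5 months against at most 7.84 CPM at 37 dpf, and lower genes (right) have no UMI at 5 months except SNORD42, with 1.

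Of the 12 largest decreases, 6 had over 95% of their 37 dpf UMIs in the keratin wells and no UMI at 5 months. The claudin gene cldna had 264 and 296 CPM at 37 dpf, at least 65.6-fold lower at 5 months, and the transglutaminase gene tgm5l 76.3 and 80.4 CPM, at least 18.3-fold lower. The annexin gene anxa1b had 119.9 and 80.4 CPM at 37 dpf, at least 23.1-fold lower at 5 months. The others were apnl, znf185 and CABZ01012141.2, with 201 and 209.7, 69.7 and 62.7 and 170.0 and 112 CPM at 37 dpf. A pair of genes lay in cartilage wells and also had no UMI at 5 months: the osteoblast gene ifitm5, with 224 and 122 CPM at 37 dpf, and the collagen-linked gene cthrc1a, with 74.1 and 74.5 CPM. In cartilage wells were 98.8% (ifitm5) and 90.3% (cthrc1a) of the 37 dpf UMIs.

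The other 4 of the 12 lay mainly outside the keratin and cartilage wells. The blood progenitor regulator gene myb, one of the 3 genes that define the myb, tal1 and lmo2 wells, had no UMI at 5 months, against 251 and 253 CPM at 37 dpf. The gene igfbp1a, which encodes a binding protein of insulin-like growth factors, had no UMI at 5 months, against 340.0 and 288 CPM at 37 dpf, at least 73.0-fold lower. At 37 dpf 84.8% of the igfbp1a UMIs lay in the myb, tal1 and lmo2 wells, and the gene was still called in the remaining wells (edgeR, Benjamini-Hochberg adjusted p = 0.0048). The N-myristoyltransferase gene nmt1b had no UMI at 5 months, against 56.7 and 80.4 CPM at 37 dpf, with 80.6% in those wells. The small nucleolar RNA row SNORD42 had 2.28 and 0 CPM at 5 months, against 636 and 349 CPM at 37 dpf, a ratio of 37 dpf over 5 months of 339.9 (95% counting interval 60.7 to 13452). Its share in those wells was 57.4%, against 53.1% and 45.3% of all UMIs on the 37 dpf plates, and it was lower in the remaining wells too (edgeR, Benjamini-Hochberg adjusted p = 0.000184). Both 37 dpf plates were above both 5-month plates for all 4 genes.

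Endocrine genes beyond the hormones were also called higher at 5 months. The 11 genes of the secretory granule list summed to 6265 and 5962 CPM at 5 months, against 47.9 and 82.3 CPM at 37 dpf, and 8 of 9 tested were higher. Their median log2 fold change was 5.73, or 5.30 with chga at its bound, against -0.02 over all genes tested. Here too, members near 0 at 37 dpf could enter the test only through the adult plates. The prohormone convertase inhibitor gene pcsk1nl had 587 and 439.8 CPM at 5 months, against 0 and 9.80 CPM at 37 dpf (log2 fold change 6.84 ± 0.57, SE), and the granule chaperone gene scg5 had 398 and 436 CPM at 5 months, against 0 and 7.84 CPM at 37 dpf (log2 fold change 6.85 ± 0.57, SE). Levels at 5 months were thus near 400 CPM or above for both, and near 0 at 37 dpf. The hormone wells held 91.0% of the scg5 UMIs and 76.9% of those of pcsk1nl.

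Hormone RNA was also counted beyond the hormone wells. After thinning to 400 UMIs, 76.7% and 44.8% of the 5-month wells held a UMI of a hormone gene, against 0.556% and 0.439% of the 37 dpf wells. In the remaining wells 3 granule genes had enough counts, and all were higher at 5 months. The part of free RNA in these 3 calls was not tested.

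Most tested regulators of the anterior lobe were called higher at 5 months. The 15 genes summed to 656 and 547 CPM at 5 months, against 15.3 and 54.9 CPM at 37 dpf, and 6 of 7 tested were higher. Their median log2 fold change was 5.51, or 4.5 with the 2 genes of no 37 dpf UMI at their bounds. Members near 0 at 37 dpf could enter the test only through the adult plates, which favours calls in this direction. The forebrain and pituitary patterning gene six3b had 129.8 and 149 CPM at 5 months, against 6.54 and 7.84 CPM at 37 dpf (log2 fold change 4.5 ± 0.46, SE; edgeR, Benjamini-Hochberg adjusted p = 3.44e-06). Its paralogue six3a had 105 and 76.5 CPM at 5 months, against 2.18 and 1.96 CPM at 37 dpf, a ratio of 45.6 (95% counting interval 12.14 to 385). Both were at or below 8 CPM at 37 dpf and above 70 CPM at 5 months. Of the 5-month UMIs 88.5% (six3b) and 95.5% (six3a) lay in wells of none of the 4 kinds. The endocrine and neuronal regulator gene isl1 had 31.9 and 68.8 CPM at 5 months, against no UMI at 37 dpf, and gata2a, at 1.87 ± 0.68 (log2 ± SE), was not called. In the remaining wells all 4 members with enough counts were higher.

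Neuronal genes were higher as well. All 7 tested of 14 neuron genes were called higher (leave-one-out 4, 10, 7 and 9), with a median log2 fold change of 3.87. The summed level was 922 and 631 CPM at 5 months, against 98.1 and 159 CPM at 37 dpf. Members near 0 at 37 dpf could enter the test only through the adult plates, so the count does not speak for untested members. Among these, syt1a had 33 and 4 UMIs at 5 months, against 0 and 4 at 37 dpf. The counts of oxt were 4 and 2 against 4 and 6, and those of sv2a 1 and 4 against 0 and 6. The neuronal RNA-binding protein gene elavl3 had 121 and 65.0 CPM at 5 months, against 0 and 3.92 CPM at 37 dpf, a ratio of 48.4 (95% counting interval 12.9 to 408), and 0% of its 5-month UMIs lay in hormone wells. The synaptic vesicle gene vamp2, which endocrine cells also express, had 97.9 and 103 CPM at 5 months, against 2.18 and 5.88 CPM at 37 dpf (log2 fold change 4.78 ± 0.67, SE), with 54.3% in hormone wells. The plates of the ages were apart in both. The membrane protein gene rtn1a had 219 and 157 CPM at 5 months, against 39.2 and 47.0 CPM at 37 dpf (log2 fold change 2.42 ± 0.35, SE). Of 5 members with enough counts in the remaining wells 4 were higher.

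Glial genes moved in both directions. The retinoic acid-degrading enzyme gene cyp26b1, a pituicyte gene in zebrafish, had 3911 and 3794 CPM at 5 months, against 137 and 143 CPM at 37 dpf (log2 fold change 5.09 ± 0.28, SE; edgeR, Benjamini-Hochberg adjusted p = 5.36e-09). The retinoic acid-binding protein gene crabp1a had 3360.2 and 4968 CPM at 5 months, against 209 and 253 CPM at 37 dpf (log2 fold change 4.5 ± 0.31, SE). Both 5-month plates exceeded both 37 dpf plates for each gene. At 7 months cyp26b1 had 6396 and 8261 CPM and crabp1a 5745 and 7309 CPM. The other 4 of 6 tested retinoid genes, of 26 in the tables, were not called.

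Over the astroglial list 6 of 13 tested genes were higher and 3 lower. The neural progenitor factor gene sox2 had 68.3 and 30.6 CPM at 5 months, against 8.72 and 7.84 CPM at 37 dpf. The receptor phosphatase gene ptprz1b had 36.4 and 30.6 CPM at 5 months, against 2.18 and 5.88 CPM at 37 dpf. The intermediate filament gene vim, of the pituicyte list and not of the astroglial one, had 296 and 329 CPM at 5 months, against 98.1 and 39.2 CPM at 37 dpf. These 3 were higher at 5 months without overlap of plates. The growth factor gene ptn had 109 and 84.1 CPM at 5 months, against 10.9 and 17.6 CPM at 37 dpf and was called higher, with 75.7% of its 5-month UMIs in hormone wells.

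The 3 lower genes of the astroglial list were slc1a2b, glula and fabp7a. The glutamate transporter gene slc1a2b had 4.55 and 0 CPM at 5 months, against 224 and 343 CPM at 37 dpf, a ratio of 37 dpf over 5 months of 101 (95% counting interval 27.6 to 834). Of its 37 dpf UMIs 97.8% lay in wells of none of the 4 kinds, and it was lower in the remaining wells too (log2 fold change -6.80 ± 0.62; edgeR, Benjamini-Hochberg adjusted p = 1.14e-05). At 7 months slc1a2b had 4.89 and 0 CPM. Glutamine synthetase, glula, had 123 and 103 CPM at 5 months, against 331 and 380.2 CPM at 37 dpf (log2 fold change -1.34 ± 0.31, SE). The fatty acid-binding protein gene of radial glia, fabp7a, had 97.9 and 191 CPM at 5 months, against 392 and 486 CPM at 37 dpf (log2 fold change -1.30 ± 0.42, SE). In both the plates of the ages were apart, and both were called in the remaining wells. In fits with a plate fewer, the adjusted p of edgeR rose above 0.05 for sox2, glula and fabp7a without 5-month plate 1 (0.07 to 0.356), for glula without 5-month plate 2 (0.0656) and for fabp7a without 37 dpf plate 2 (0.0561).

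Notch pathway genes were higher in 6 of 12 tested genes (leave-one-out 1, 5, 3 and 4) and lower in none, of 34 in the tables, with a median log2 fold change of 1.02. The Notch target gene her6 had 214 and 199 CPM at 5 months, against 37.1 and 58.8 CPM at 37 dpf (log2 fold change 2.4 ± 0.36, SE) and 519 and 757 CPM at 7 months. The receptor gene notch3 had 36.4 and 30.6 CPM at 5 months, against 4.36 and 9.80 CPM at 37 dpf. The repressor gene hes6 had 43.3 and 26.8 CPM at 5 months, against 2.18 and 3.92 CPM at 37 dpf, a ratio of 12.0 (95% counting interval 3.67 to 61.9). All 3 were higher on both 5-month plates than on either 37 dpf plate, and 4 of 8 Notch genes were higher in the remaining wells. At equal depth per well, 400 UMIs, the Notch list averaged 0.342 and 0.138 UMIs at 5 months, against 0.178 and 0.149 at 37 dpf, where the plates overlapped.

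Of 10 tested Wnt genes, of 63 in the tables, 3 were higher (leave-one-out 1, 3, 3 and 2) and none lower. Beside these counts stand 14.6% higher and 13.1% lower among all genes tested. The secreted antagonist gene sfrp5 had 278 and 321 CPM at 5 months, against 34.9 and 127 CPM at 37 dpf (log2 fold change 2.19 ± 0.45, SE). Its relative sfrp1b had 107 and 91.8 CPM at 5 months, against 17.4 and 31.4 CPM at 37 dpf (log2 fold change 2.31 ± 0.54, SE). The receptor gene fzd8a had 36.4 and 30.6 CPM at 5 months, against 8.72 and 0 CPM at 37 dpf. Plates of the ages did not overlap in these genes. Summed over the Wnt list, the plates overlapped at 400 UMIs per well, with 0.366 and 0.5 UMIs at 5 months, against 0.444 and 0.632 at 37 dpf. Single plates carried some calls: the edgeR adjusted p rose above 0.05 for notch3, sfrp1b and fzd8a without 5-month plate 1 (0.0534 to 0.0794), for notch3 without 37 dpf plate 1 (0.081) and for fzd8a without 37 dpf plate 2 (0.0541).

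Of 10 tested transforming growth factor and bone morphogenetic protein genes 3 were higher and 1 lower. Among all genes tested 14.6% were higher and 13.1% lower. The ligand gene bmp5 had 18.2 and 15.3 CPM at 5 months, against 2.18 and 0 CPM at 37 dpf, a ratio of 16.6 (95% counting interval 2.46 to 709). The target gene id2a had 100.2 and 84.1 CPM at 5 months, against 15.3 and 56.8 CPM at 37 dpf and id1 had 155 and 184 CPM at 5 months, against 82.8 and 133 CPM at 37 dpf. The activin-binding antagonist gene fstb was the lower one, with 6.83 and 19.1 CPM at 5 months, against 69.7 and 133 CPM at 37 dpf (log2 fold change -2.78 ± 0.61, SE), and it was at -3.45 ± 0.64 in the remaining wells. Of 9 tested genes of insulin-like growth factors and their binding proteins 2 were higher and 1 lower, beside the same 14.6% and 13.1%. Among the binding proteins igfbp1b had 15.9 and 80.3 CPM at 5 months, against 13.1 and 3.92 CPM at 37 dpf and igfbp5b 187 and 359 CPM at 5 months, against 56.7 and 163 CPM at 37 dpf, and both were called higher. Thus igfbp1b and its paralogue igfbp1a had opposite signs. The edgeR adjusted p rose above 0.05 for bmp5, id2a, id1 and fstb without 5-month plate 1 (0.11 to 0.225), for igfbp1b, igfbp5b, bmp5, id2a and id1 without 5-month plate 2 (0.0756 to 0.58), for igfbp5b, bmp5, id2a and id1 without 37 dpf plate 1 (0.0813 to 0.413) and for igfbp1b, bmp5 and id1 without 37 dpf plate 2 (0.0679 to 0.208).

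Immediate early genes, the first to be transcribed after a stimulus and also after tissue dissociation, were higher at 5 months. The 34 genes summed to 22674 and 21049.7 CPM at 5 months, against 10004 and 12206 CPM at 37 dpf, and 19 of 31 tested were higher (leave-one-out 15, 11, 12 and 14) and 1 lower. Their median log2 fold change was 1.05. The transcription factor gene egr4 had 303 and 226 CPM at 5 months, against 24.0 and 13.7 CPM at 37 dpf (log2 fold change 4.1 ± 0.41, SE), and egr3 had 248 and 275 CPM at 5 months, against 47.9 and 35.3 CPM at 37 dpf (log2 fold change 2.95 ± 0.36, SE). The orphan receptor gene nr4a1 had 851 and 776 CPM at 5 months, against 211 and 176 CPM at 37 dpf (log2 fold change 2.37 ± 0.29, SE). Each 5-month plate was above each 37 dpf plate for these 3. The cytokine signalling inhibitor gene socs3a was lower, with 22.8 and 38.2 CPM at 5 months, against 113 and 72.5 CPM at 37 dpf (log2 fold change -1.36 ± 0.46, SE). By leave-one-out, edgeR gave an adjusted p above 0.05 for socs3a without 5-month plate 1 (0.354), for socs3a without 5-month plate 2 (0.0613) and for socs3a without 37 dpf plate 1 (0.269).

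The list summed to 43093 and 46407 CPM at 7 months. The remaining wells gave 14 immediate early genes higher and 1 lower of 31. The share of wells with a UMI of the list after thinning was 86.0% and 81.0% at 5 months and 87.8% and 88.6% at 37 dpf, which goes against the summed level, so no order is read from it. Age and the handling of each pool cannot be told apart.

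Heat shock genes split by type. The inducible gene hsp70l had 1268 and 964 CPM at 5 months, against 61.0 and 51.0 CPM at 37 dpf (log2 fold change 4.61 ± 0.32, SE), and hsp90aa1.2 had 2135 and 1174 CPM at 5 months, against 67.6 and 98.0 CPM at 37 dpf (log2 fold change 4.60 ± 0.35, SE). Another inducible gene, hsp70.2, had 2711 and 1698 CPM at 5 months, against 211 and 208 CPM at 37 dpf (log2 fold change 3.69 ± 0.30, SE), although reads may be split among the near-identical hsp70 copies. All 3 were higher by severalfold on each 5-month plate. The constitutive chaperone genes hspa8 and hsp90ab1 were not called, at -0.59 ± 0.24 and -0.17 ± 0.23 (log2 ± SE), and hspa4b was lower, with 34.1 and 30.6 CPM at 5 months, against 98.1 and 123 CPM at 37 dpf. Of 14 tested genes 7 were higher and 1 lower, and with library-size scaling 7 were higher and 3 lower. The remaining wells gave 6 of 13 as higher. A plate fewer brought the edgeR adjusted p above 0.05 for hspa4b without 5-month plate 1 (0.148), for hspa4b without 5-month plate 2 (0.109) and for hspa4b without 37 dpf plate 2 (0.0906).

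Chaperones of the endoplasmic reticulum, which fold secreted proteins, were higher in 10 of 18 tested genes (leave-one-out 3, 3, 7 and 5) and lower in none, with a median of 1.19. The disulfide isomerase gene pdia3 had 364 and 455 CPM at 5 months, against 98.1 and 143 CPM at 37 dpf (log2 fold change 2.08 ± 0.34, SE), with 69.9% of its 5-month UMIs in hormone wells. The chaperone gene hspa5 had 396 and 371 CPM at 5 months, against 113 and 153 CPM at 37 dpf (log2 fold change 1.83 ± 0.33, SE). The stress-response factor gene xbp1 had 542 and 425 CPM at 5 months, against 198 and 247 CPM at 37 dpf (log2 fold change 1.42 ± 0.30, SE). Plates of the ages were apart in all 3. DESeq2 called 5 of the list, and 2 of 14 were higher in the remaining wells, where pdia3 was at 0.50 ± 0.44 (log2 ± SE). Of all genes tested in the remaining wells 7.94% were higher. With every well thinned to 400 UMIs the list averaged 1.18 and 0.931 UMIs per well at 5 months, against 1.07 and 1.30 at 37 dpf, and 54.5% and 44.8% of the wells held one at 5 months, against 60.6% and 67.1% at 37 dpf. With each well weighted equally the averages of the ages thus overlapped. With a plate left out, the adjusted p of edgeR rose above 0.05 for xbp1 without 5-month plate 1 (0.0508).

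Among circadian clock genes 13 of 29 were tested, of which 7 were higher (leave-one-out 5, 3, 4 and 4) and 1 lower. The core clock repressor gene per1b had 50.1 and 80.3 CPM at 5 months, against no UMI at 37 dpf, at least 19.8-fold higher. Its relative per3 had 43.3 and 61.2 CPM at 5 months, against 2.18 and 7.84 CPM at 37 dpf (log2 fold change 3.52 ± 0.71, SE), and the nuclear receptor gene nr1d2b had 45.5 and 68.8 CPM at 5 months, against 13.1 and 11.8 CPM at 37 dpf. These 3 were higher on both 5-month plates. The nfil3-family repressor gene nfil3-5 was lower, with 36.4 and 26.8 CPM at 5 months, against 122 and 163 CPM at 37 dpf (log2 fold change -1.84 ± 0.41, SE). Of 9 clock genes tested in the remaining wells 2 were higher. The labels give no time of day for dissection, so age and time of day cannot be told apart. At 400 UMIs per well the clock list averaged 0.195 and 0.27 UMIs at 5 months, against 0.272 and 0.303 at 37 dpf. Of the wells 16.0% and 20.7% held one at 5 months, against 23.3% and 23.2% at 37 dpf. These values are not in the direction of most of the calls. The 400 UMIs include the AC024175 rows and no TMM scaling is applied, so no order is read from these values. In fits with a plate fewer, the adjusted p of edgeR rose above 0.05 for nr1d2b without 5-month plate 2 (0.052).

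Steroid and thyroid hormone genes were higher in 4 of 7 tested genes and lower in none. The estrogen receptor gene esr1 had 82.0 and 53.5 CPM at 5 months, against 4.36 and 0 CPM at 37 dpf, a ratio of 34.6 (95% counting interval 9.08 to 293), and esr2b had 38.7 and 49.7 CPM at 5 months, against 4.36 and 0 CPM at 37 dpf, a ratio of 20.7 (95% counting interval 5.26 to 179). Hormone wells held 94.0% (esr1) and 60.0% (esr2b) of the 5-month UMIs. The thyroid hormone-activating deiodinase gene dio2 had 70.6 and 103 CPM at 5 months, against 13.1 and 11.8 CPM at 37 dpf (log2 fold change 3.05 ± 0.56, SE). None of 5 was called in the remaining wells. Per well of 400 UMIs the list averaged 0.354 and 0.328 UMIs at 5 months, against 0.372 and 0.351 at 37 dpf, again with overlap. Single plates carried some calls: the edgeR adjusted p rose above 0.05 for esr1 and esr2b without 5-month plate 1 (0.0528 to 0.0889).

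Macrophage genes were higher at 5 months where all wells were summed. The list summed to 8018 and 7611 CPM at 5 months, against 2788 and 4102 CPM at 37 dpf, and 12 of 21 tested genes were higher (leave-one-out 3, 3, 7 and 7) and none lower. The granulin gene grn1 had 835 and 627 CPM at 5 months, against 107 and 88.2 CPM at 37 dpf (log2 fold change 3.20 ± 0.37, SE) and grn2 455 and 470.4 CPM at 5 months, against 37.1 and 23.5 CPM at 37 dpf (log2 fold change 4.23 ± 0.51, SE), and reads may be split between such paralogues. Of their 5-month UMIs 82.1% (grn1) and 82.0% (grn2) lay in hormone wells. The antigen presentation chaperone gene cd74a had 2613 and 3637 CPM at 5 months, against 1101 and 1799 CPM at 37 dpf (log2 fold change 1.44 ± 0.32, SE), with 85.7% in macrophage-rich wells. Library-size scaling gave 5 of the list as higher and DESeq2 4, and none was called in the remaining wells, where grn1 was at 0.14 ± 0.50 and cd74a at 0.32 ± 0.25 (log2 ± SE). In wells thinned to 400 UMIs the list averaged 1.92 and 1.29 UMIs at 5 months, against 1.47 and 1.62 at 37 dpf, and the plates overlapped. The edgeR adjusted p rose above 0.05 for cd74a without 5-month plate 2 (0.148).

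Antigen presentation genes were higher in 5 of 9 tested genes and lower in none. The beta-2-microglobulin gene b2ml had 649 and 597 CPM at 5 months, against 233 and 321 CPM at 37 dpf (log2 fold change 1.48 ± 0.28, SE), and it was called in the remaining wells (edgeR, Benjamini-Hochberg adjusted p = 0.0266). The myeloid transcription factor gene irf8 had 52.4 and 65.0 CPM at 5 months, against 8.72 and 17.6 CPM at 37 dpf (log2 fold change 2.39 ± 0.52, SE). The transcription factor gene tox, of the lymphocyte list, had 121 and 80.3 CPM at 5 months, against 17.4 and 23.5 CPM at 37 dpf (log2 fold change 2.58 ± 0.43, SE). In each the lowest 5-month plate was above the highest 37 dpf plate. None of the 9 neutrophil genes and 1 of 12 lymphocyte genes, tox, had enough counts for a test. The lymphocyte genes lck, cd79a and cd8a had no UMI at either age. The lymphocyte-list gene gata3 had 0 and 5 UMIs at 5 months, against 7 and 12 at 37 dpf. Thinned to 400 UMIs per well the antigen presentation list averaged 1.43 and 1.11 UMIs at 5 months, against 1.29 and 1.44 at 37 dpf, so the plates of the ages overlapped.

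Of 16 tested chemokine genes, of 72 in the tables, 8 were higher (leave-one-out 8, 5, 7 and 9) and 1 lower. The chemokine-scavenging receptor gene ackr4b had 41.0 and 72.7 CPM at 5 months, against 0 and 1.96 CPM at 37 dpf, a ratio of 51.2 (95% counting interval 8.63 to 2075). The chemokine gene ccl35.1 had 173 and 581 CPM at 5 months, against 71.9 and 51.0 CPM at 37 dpf (log2 fold change 2.94 ± 0.51, SE), and cxcl18b had 207 and 268 CPM at 5 months, against 87.2 and 86.2 CPM at 37 dpf (log2 fold change 1.76 ± 0.32, SE). The neutrophil attractant gene cxcl8a was lower, with 13.7 and 3.82 CPM at 5 months, against 67.6 and 76.4 CPM at 37 dpf (log2 fold change -2.56 ± 0.86, SE). The remaining wells gave 5 higher of 13, these 3 included, and cxcl8a again lower. By leave-one-out, edgeR gave an adjusted p above 0.05 for cxcl8a without 5-month plate 1 (0.166) and for cxcl8a without 5-month plate 2 (0.209).

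Complement genes, which encode proteins of an innate immune cascade, were higher in 6 of 7 tested genes (leave-one-out 3, 3, 6 and 4), of 31 in the tables, whereas DESeq2 called 2. The factor D gene cfd had 1234 and 1629 CPM at 5 months, against 654 and 468 CPM at 37 dpf (log2 fold change 1.67 ± 0.31, SE). At 37 dpf 91.3% of its UMIs lay in keratin wells, and in the remaining wells its log2 fold change was 4.44 ± 0.36. The terminal pathway gene c6 had 88.8 and 119 CPM at 5 months, against 2.18 and 11.8 CPM at 37 dpf (log2 fold change 4.07 ± 0.66, SE), and c4 had 61.5 and 107 CPM at 5 months, against 0 and 13.7 CPM at 37 dpf (log2 fold change 3.76 ± 0.86, SE). Of their 5-month UMIs 92.9% (c6) and 92.7% (c4) lay in wells of none of the 4 kinds. All 3 were called in the remaining wells. A plate fewer brought the edgeR adjusted p above 0.05 for c4 without 5-month plate 2 (0.0531).

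Proliferation genes were lower at 5 months. The 25 genes of the cell cycle list summed to 435 and 264 CPM at 5 months, against 3249.6 and 2895 CPM at 37 dpf, and 18 of 20 tested were lower and none higher. Their median log2 fold change was -2.78, also with the 3 genes of no 5-month UMI at their bounds. The proliferation marker gene mki67 had 13.7 and 0 CPM at 5 months, against 214 and 245 CPM at 37 dpf (log2 fold change -4.45 ± 0.56, SE; edgeR, Benjamini-Hochberg adjusted p = 2.34e-05) and 19.6 and 12.2 CPM at 7 months. The chromatin protein gene hmgb2a had 72.8 and 84.1 CPM at 5 months, against 615 and 578 CPM at 37 dpf (log2 fold change -2.63 ± 0.33, SE), and hmgb2b had 75.1 and 57.4 CPM at 5 months, against 418 and 414 CPM at 37 dpf (log2 fold change -2.33 ± 0.36, SE). The ages were far apart in all 3.

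At 37 dpf the myb, tal1 and lmo2 wells held 66.9% and 63.7% of the cell cycle UMIs, beside 53.1% and 45.3% of all UMIs. Without them 8 of 10 members with enough counts were lower. Among the remaining wells the count was 8 of 10, with mki67 at -3.01 ± 0.84 and hmgb2a at -2.10 ± 0.42 (log2 ± SE). After thinning to 400 UMIs, 8.17% and 8.05% of the 5-month wells and 45.6% and 43.9% of the 37 dpf wells held a UMI of the list.

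Histone and chromatin genes were lower in 11 of 25 tested genes (leave-one-out 7, 5, 8 and 10) and higher in 2. The nucleosome-binding protein gene hmgn2 had 269 and 142 CPM at 5 months, against 1879 and 1648 CPM at 37 dpf (log2 fold change -2.80 ± 0.33, SE), and hmga1a had 173 and 111 CPM at 5 months, against 597 and 598 CPM at 37 dpf (log2 fold change -1.76 ± 0.31, SE). The row si:ch73-281n10.2 of this list was lower too. The histone gene hist2h2l was higher, with 285 and 199 CPM at 5 months, against 76.3 and 112 CPM at 37 dpf, and so was hmgb1a, with 269 and 241 CPM at 5 months, against 118 and 209.7 CPM at 37 dpf. Among the remaining wells 4 were lower and 1 higher, hmgn2 among the lower at -2.09 ± 0.35 (log2 ± SE). With a plate left out, the adjusted p of edgeR rose above 0.05 for hmgb1a without 5-month plate 1 (0.2), for hmgb1a without 5-month plate 2 (0.232) and for hmgb1a without 37 dpf plate 1 (0.46).

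Some genes of mitochondrial respiration were called lower, and the count depended on scaling and on the wells kept. Of 80 tested nuclear-encoded respiratory chain genes 28 were lower (leave-one-out 2, 7, 10 and 15) and none higher, with a median of -0.81. Of all genes tested 13.1% were lower. Library-size scaling gave 45 of the list lower, beside 19.7% of all genes tested. The ATP synthase subunit gene atp5g3b had 237 and 272 CPM at 5 months, against 963 and 866 CPM at 37 dpf (log2 fold change -1.54 ± 0.29, SE), and the cytochrome oxidase subunit gene cox6c had 141 and 134 CPM at 5 months, against 440.2 and 414 CPM at 37 dpf (log2 fold change -1.33 ± 0.31, SE). The subunit gene cox6b1 had 4.55 and 3.82 CPM at 5 months, against 78.5 and 70.6 CPM at 37 dpf, a ratio of 37 dpf over 5 months of 17.4 (95% counting interval 5.71 to 86.1). Without the myb, tal1 and lmo2 wells 2 of 73 were called, and in the remaining wells 5 of 67. Among all genes tested in these 2 sets 19.7% and 13.7% were called. In fits with a plate fewer, the adjusted p of edgeR rose above 0.05 for cox6c without 5-month plate 1 (0.0925) and for cox6c without 5-month plate 2 (0.057).

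The 13 genes tested of the mitochondrial genome itself gave 2 calls, both higher. The complex I subunit gene mt-nd5 had 977 and 1300.3 CPM at 5 months, against 541 and 682 CPM at 37 dpf (log2 fold change 1.22 ± 0.28, SE), and the cytochrome oxidase subunit gene mt-co1 11474 and 13718 CPM at 5 months, against 9908 and 9968 CPM at 37 dpf (log2 fold change 0.66 ± 0.23, SE). Plates were apart in both. With library-size scaling mt-co1 was at 0.33 ± 0.18 (edgeR, Benjamini-Hochberg adjusted p = 0.181). Single plates carried some calls: the edgeR adjusted p rose above 0.05 for mt-co1 without 5-month plate 1 (0.09), for mt-nd5 and mt-co1 without 5-month plate 2 (0.18 to 0.576), for mt-nd5 and mt-co1 without 37 dpf plate 1 (0.0753 to 0.254) and for mt-co1 without 37 dpf plate 2 (0.268).

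Cytosolic ribosomal protein genes summed to 144823 and 138019.8 CPM at 5 months, against 254158 and 229917 CPM at 37 dpf. Of 82 tested 12 were lower (leave-one-out 0, 1, 1 and 7) and none higher, with a median log2 fold change of -0.45. That is 14.6% lower, near the 13.1% among all genes tested. Library-size scaling called 61 lower, where 19.7% of all genes tested were lower. Without the myb, tal1 and lmo2 wells 2 of 79 were lower, and in the remaining wells none of 78. The large-subunit gene rpl22l1 had 262 and 279 CPM at 5 months, against 1033 and 764 CPM at 37 dpf (log2 fold change -1.43 ± 0.31, SE), and rpl27 had 1514 and 1384 CPM at 5 months, against 3583 and 3046 CPM at 37 dpf (log2 fold change -0.89 ± 0.24, SE). The small-subunit gene rps24 had 1767 and 1973 CPM at 5 months, against 4860.2 and 4006 CPM at 37 dpf (log2 fold change -0.93 ± 0.26, SE). Plates were apart in all 3. At 37 dpf between 54.5% (rps24) and 59.5% (rpl22l1) of their UMIs lay in the myb, tal1 and lmo2 wells, which held 53.1% and 45.3% of all UMIs on those plates. The edgeR adjusted p rose above 0.05 for rpl22l1, rpl27 and rps24 without 5-month plate 1 (0.0771 to 0.2), for rpl27 and rps24 without 5-month plate 2 (0.0943 to 0.144) and for rpl27 and rps24 without 37 dpf plate 1 (0.12 to 0.141).

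Translation factors gave 9 lower (leave-one-out 2, 2, 1 and 3) and 2 higher of 57 tested genes. The lower ones were 15.8%, near the 13.1% among all genes tested. The initiation factor gene eif5a2 had 179.8 and 199 CPM at 5 months, against 804 and 776 CPM at 37 dpf (log2 fold change -1.75 ± 0.30, SE). The genes eif4bb and eif6 were at -1.23 ± 0.34 and -1.30 ± 0.40 (log2 ± SE). The elongation factor genes eef1a1a, with 95.6 and 80.3 CPM at 5 months, against 10.9 and 11.8 CPM at 37 dpf, and eef2l2, with 56.9 and 61.2 CPM at 5 months, against 13.1 and 31.4 CPM at 37 dpf, were higher. Splicing and RNA-binding genes were lower in 9 of 50 (leave-one-out 0, 1, 2 and 4), which is 18.0% beside the same 13.1%. The small nuclear ribonucleoprotein gene snrpg had 27.3 and 57.4 CPM at 5 months, against 214 and 209.7 CPM at 37 dpf (log2 fold change -2.08 ± 0.41, SE), and snrpf and snrpa were at -1.40 ± 0.35 and -1.81 ± 0.52 (log2 ± SE).

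Proteasome genes were lower in 10 of 36 tested genes (leave-one-out 4, 3, 4 and 4), or 20 with library-size scaling. Of all genes tested 13.1% were lower, or 19.7% with library-size scaling. The subunit gene psma5 had 50.1 and 34.4 CPM at 5 months, against 181 and 163 CPM at 37 dpf (log2 fold change -1.69 ± 0.37, SE), and psmc4 and psma3 were at -1.58 ± 0.40 and -1.32 ± 0.36 (log2 ± SE). No translation, splicing or proteasome gene was called in the remaining wells. By leave-one-out, edgeR gave an adjusted p above 0.05 for eef2l2, eif4bb, eif6, snrpg, snrpf and snrpa without 5-month plate 1 (0.0528 to 0.195), for psma5, psmc4, psma3, eef2l2, eif4bb, eif6, snrpf and snrpa without 5-month plate 2 (0.0553 to 0.19), for eef2l2, eif4bb, eif6 and snrpf without 37 dpf plate 1 (0.0634 to 0.274) and for psma3, eif6 and snrpa without 37 dpf plate 2 (0.0569 to 0.11).

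Antioxidant and metal-binding genes were lower in 12 of 29 tested genes (leave-one-out 3, 8, 9 and 8) and higher in 1. The peroxiredoxin gene prdx2, abundant in red cells, had 184 and 103 CPM at 5 months, against 1003 and 786 CPM at 37 dpf (log2 fold change -2.32 ± 0.32, SE), and prdx3 had 50.1 and 38.2 CPM at 5 months, against 296 and 214 CPM at 37 dpf (log2 fold change -2.21 ± 0.37, SE). The iron storage gene fth1a (ferritin) had 558 and 463 CPM at 5 months, against 2009 and 1597 CPM at 37 dpf (log2 fold change -1.52 ± 0.27, SE). At 37 dpf the myb, tal1 and lmo2 wells held 72.0% (prdx2), 74.3% (prdx3) and 66.5% (fth1a) of the UMIs, beside 53.1% and 45.3% of those of all genes. The lipid peroxidase gene gpx4a was higher, with 79.7 and 99.4 CPM at 5 months, against 17.4 and 43.1 CPM at 37 dpf. In the remaining wells 4 of 25 were lower, the glutathione transferase gene gstt1a among them at -3.66 ± 0.63 (log2 ± SE). A plate fewer brought the edgeR adjusted p above 0.05 for gstt1a without 5-month plate 1 (0.0554), for gpx4a and gstt1a without 5-month plate 2 (0.0689 to 0.114), for gpx4a without 37 dpf plate 1 (0.112) and for gstt1a without 37 dpf plate 2 (0.0725).

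Few endothelial genes had enough counts, and most of those were called lower at 5 months. Members with too few counts for a test went both ways. The gene plvap had 6 and 5 UMIs at 5 months, against 0 and 1 at 37 dpf. The counts of cdh5 were 4 and 4 against 2 and 6, and those of lyve1b 0 and 0 against 5 and 6. Of 5 tested genes, of 25 in the tables, 4 were lower (leave-one-out 1, 3, 0 and 2), with a median of -3.60, or -3.23 with flt4 at its bound. The lymphatic growth factor receptor gene flt4 had no UMI at 5 months, against 41.4 and 39.2 CPM at 37 dpf, at least 9.40-fold lower (edgeR, Benjamini-Hochberg adjusted p = 0.00193). The endothelial claudin gene cldn5b had 0 and 3.82 CPM at 5 months, against 61.0 and 41.2 CPM at 37 dpf, a ratio of 37 dpf over 5 months of 35.4 (95% counting interval 6.07 to 1428). The mannose receptor gene mrc1a had 6.83 and 0 CPM at 5 months, against 80.6 and 52.9 CPM at 37 dpf, a ratio of 15.4 (95% counting interval 5.05 to 76.8). These 3 were nearly absent from the 5-month plates, and over 80% of their 37 dpf UMIs lay in wells of none of the 4 kinds. Again 4 of 5 were lower in the remaining wells. With a plate left out, the adjusted p of edgeR rose above 0.05 for flt4 and cldn5b without 5-month plate 1 (0.113 to 0.121), for flt4, cldn5b and mrc1a without 37 dpf plate 1 (0.0662 to 0.153) and for flt4 without 37 dpf plate 2 (0.0646).

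Collagen and fibroblast genes were called more often lower than higher at 5 months, and most were not called. Of 19 tested fibroblast genes 5 were lower and 1 higher. Of 36 tested genes of fibrillar collagen and matrix assembly 12 were lower (leave-one-out 2, 4, 9 and 10) and 2 higher. The type I collagen gene col1a1a had 662 and 547 CPM at 5 months, against 5276 and 2965 CPM at 37 dpf (log2 fold change -2.47 ± 0.45, SE), with 84.3% of its 37 dpf UMIs in cartilage wells. The matrix protein gene sparc had 409.8 and 509 CPM at 5 months, against 2029 and 1360.1 CPM at 37 dpf (log2 fold change -1.57 ± 0.44, SE), with 75.9%. In the remaining wells col1a1a was at -0.43 ± 0.36 and sparc at 0.08 ± 0.41 (log2 ± SE), and neither was called. The collagen gene col5a2b had 4.55 and 0 CPM at 5 months, against 80.6 and 39.2 CPM at 37 dpf, a ratio of 37 dpf over 5 months of 20.6 (95% counting interval 5.45 to 174). The proteoglycan gene ogn had 2.28 and 0 CPM at 5 months, against 52.3 and 23.5 CPM at 37 dpf, a ratio of 26.0 (95% counting interval 4.38 to 1056).

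Some matrix genes changed in the remaining wells as well. There 4 of 23 fibrillar matrix genes were lower: tnc, loxl1, mfap2 and pcolcea. The tenascin gene tnc had 13.7 and 11.5 CPM at 5 months, against 95.9 and 82.3 CPM at 37 dpf (log2 fold change -2.48 ± 0.56, SE) and was at -3.02 ± 0.58 in the remaining wells. Higher with all wells were the microfibril gene mfap5, with 36.4 and 111 CPM at 5 months, against 15.3 and 19.6 CPM at 37 dpf, and the collagen chaperone gene serpinh1b, with 164 and 164 CPM at 5 months, against 21.8 and 84.3 CPM at 37 dpf. In fits with a plate fewer, the adjusted p of edgeR rose above 0.05 for sparc, ogn, tnc, loxl1, mfap2 and pcolcea without 5-month plate 1 (0.0502 to 0.393), for mfap5, sparc, ogn, serpinh1b, loxl1 and mfap2 without 5-month plate 2 (0.0529 to 0.368), for serpinh1b and col5a2b without 37 dpf plate 1 (0.0867 to 0.204) and for mfap2 and pcolcea without 37 dpf plate 2 (0.155 to 0.163).

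Basement membrane genes were higher in 4 of 16 tested genes and lower in 1, sparc, beside 14.6% and 13.1% of all genes tested. The laminin receptor gene bcam had 86.5 and 49.7 CPM at 5 months, against 2.18 and 11.8 CPM at 37 dpf (log2 fold change 3.50 ± 0.60, SE), and the proteoglycan gene agrn had 75.1 and 65.0 CPM at 5 months, against 26.2 and 23.5 CPM at 37 dpf (log2 fold change 1.79 ± 0.43, SE). The laminin gene lama5 had 25.0 and 19.1 CPM at 5 months, against 2.18 and 1.96 CPM at 37 dpf, a ratio of 11.1 (95% counting interval 2.60 to 99.2). The metalloproteinase inhibitor gene timp4.1 had 56.9 and 7.65 CPM at 5 months, against no UMI at 37 dpf, at least 12.4-fold higher, although its plates at 5 months were far from each other, and timp4.3 had 72.8 and 61.2 CPM at 5 months, against 26.2 and 31.4 CPM at 37 dpf. Of 4 tested mural cell genes 3 were higher (leave-one-out 0, 2, 1 and 1). The mural cell gene tagln had 109 and 49.7 CPM at 5 months, against 30.5 and 15.7 CPM at 37 dpf, and rgs5a had 212 and 191 CPM at 5 months, against 98.1 and 102 CPM at 37 dpf. Both mural genes were called with all wells and not in the remaining wells. Single plates carried some calls: the edgeR adjusted p rose above 0.05 for tagln, rgs5a, lama5, agrn, timp4.1 and timp4.3 without 5-month plate 1 (0.0616 to 0.316), for rgs5a and timp4.3 without 5-month plate 2 (0.0844 to 0.135), for rgs5a, lama5 and timp4.3 without 37 dpf plate 1 (0.0645 to 0.126) and for tagln, rgs5a, lama5, agrn and timp4.3 without 37 dpf plate 2 (0.0562 to 0.123).

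About as many epithelial adhesion genes were called lower as were not, the leading ones with most of their 37 dpf RNA in keratin wells. Of 19 tested genes 10 were lower (leave-one-out 6, 9, 7 and 8) and 1 higher, and 1 of 6 was lower in the remaining wells. The desmosome gene pkp3a had 4.55 and 0 CPM at 5 months, against 272 and 245 CPM at 37 dpf, a ratio of 37 dpf over 5 months of 90.4 (95% counting interval 24.8 to 750.5). The plakoglobin gene jupa had 34.1 and 26.8 CPM at 5 months, against 272 and 235 CPM at 37 dpf (log2 fold change -2.73 ± 0.38, SE). In keratin wells lay 95.2% (pkp3a) and 84.9% (jupa) of the 37 dpf UMIs. The claudin gene cldn19 was higher, with 203 and 134 CPM at 5 months, against 61.0 and 41.2 CPM at 37 dpf (log2 fold change 2.02 ± 0.41, SE), and 96.0% of its 5-month UMIs lay in wells of none of the 4 kinds. The edgeR adjusted p rose above 0.05 for cldn19 without 5-month plate 1 (0.052).

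Cytoskeletal genes split in direction, 6 higher and 8 lower of 28, beside 14.6% higher and 13.1% lower among all genes tested. The tubulin gene tubb5 had 275 and 157 CPM at 5 months, against 30.5 and 52.9 CPM at 37 dpf (log2 fold change 2.66 ± 0.39, SE), and tuba1c had 357 and 184 CPM at 5 months, against 67.6 and 96.0 CPM at 37 dpf (log2 fold change 2.02 ± 0.36, SE). The gene tuba2 had 41.0 and 30.6 CPM at 5 months, against 2.18 and 1.96 CPM at 37 dpf, a ratio of 18.0 (95% counting interval 4.50 to 156), while tuba8l was lower, with 168 and 111 CPM at 5 months, against 863 and 874 CPM at 37 dpf (log2 fold change -2.32 ± 0.31, SE). Reads may be split among the near-identical alpha-tubulin genes. The actin regulator gene cfl1l had 31.9 and 30.6 CPM at 5 months, against 1057 and 668 CPM at 37 dpf (log2 fold change -4.48 ± 0.41, SE), and tmsb1 had 93.3 and 65.0 CPM at 5 months, against 1044 and 792 CPM at 37 dpf (log2 fold change -3.22 ± 0.34, SE). Keratin wells held 96.0% (cfl1l) and 94.1% (tmsb1) of the 37 dpf UMIs, and in the remaining wells tmsb1 was at 0.06 ± 0.49 (log2 ± SE). There tubb5 and tuba1c were higher and tuba8l lower. By leave-one-out, edgeR gave an adjusted p above 0.05 for tuba2 without 5-month plate 1 (0.117).

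Of 16 tested glycolysis genes 4 were higher and 2 lower, beside 14.6% higher and 13.1% lower among all genes tested. The aldolase gene aldocb had 332 and 287 CPM at 5 months, against 37.1 and 47.0 CPM at 37 dpf (log2 fold change 3.17 ± 0.37, SE), with 69.7% of its 5-month UMIs in hormone wells. The enolase gene eno1a had 287 and 210.3 CPM at 5 months, against 78.5 and 82.3 CPM at 37 dpf, and the hexokinase gene hk1 had 102 and 103 CPM at 5 months, against 21.8 and 33.3 CPM at 37 dpf. The lactate dehydrogenase gene ldhba was lower, with 155 and 119 CPM at 5 months, against 314 and 388 CPM at 37 dpf. The gene gapdh had 4.55 and 3.82 CPM at 5 months, against 54.5 and 99.95 CPM at 37 dpf, a ratio of 37 dpf over 5 months of 18.3 (95% counting interval 6.04 to 90.8), and of the glycolysis genes only gapdh was called in the remaining wells. The glycolysis list averaged 0.883 and 0.701 UMIs per well of 400 at 5 months, against 0.894 and 0.947 at 37 dpf. A plate fewer brought the edgeR adjusted p above 0.05 for ldhba without 5-month plate 1 (0.142), for ldhba without 5-month plate 2 (0.182) and for ldhba without 37 dpf plate 2 (0.128).

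Of 10 tested genes of cholesterol and fatty acid synthesis, of 37 in the tables, 4 were lower (leave-one-out 1, 4, 2 and 2) and 1 higher. The synthase gene hmgcs1 had 6.83 and 11.5 CPM at 5 months, against 116 and 180.3 CPM at 37 dpf (log2 fold change -3.75 ± 0.53, SE), and the methylsterol oxidase gene msmo1 had 6.83 and 7.65 CPM at 5 months, against 63.2 and 109.8 CPM at 37 dpf (log2 fold change -3.25 ± 0.66, SE). The sterol isomerase gene ebp had no UMI at 5 months, against 30.5 and 41.2 CPM at 37 dpf, at least 8.44-fold lower. Keratin wells held 76.6% (hmgcs1), 75.3% (msmo1) and 62.9% (ebp) of the 37 dpf UMIs. Fatty acid synthase, fasn, was higher, with 75.1 and 103 CPM at 5 months, against 34.9 and 33.3 CPM at 37 dpf (log2 fold change 1.66 ± 0.42, SE). With a plate left out, the adjusted p of edgeR rose above 0.05 for msmo1 and ebp without 5-month plate 1 (0.0649 to 0.136), for fasn without 5-month plate 2 (0.139), for ebp without 37 dpf plate 1 (0.0597) and for fasn without 37 dpf plate 2 (0.0575).

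Lipid carrier genes gave 3 calls higher and 3 lower of 10 tested, beside 14.6% higher and 13.1% lower among all genes tested. The apolipoprotein gene apoa1a had 45.5 and 107 CPM at 5 months, against no UMI at 37 dpf, at least 22.1-fold higher, with 85.4% of its UMIs in hormone wells. The gene apoeb had 596 and 291 CPM at 5 months, against 246 and 190.1 CPM at 37 dpf, and apoc1 had 899 and 512 CPM at 5 months, against 21.8 and 345 CPM at 37 dpf. Macrophage-rich wells held 90.2% (apoeb) and 89.0% (apoc1) of the 5-month UMIs, and without those wells apoeb was at -1.30 on the log2 scale. The fatty acid-binding protein gene fabp3 was lower, with 127 and 95.6 CPM at 5 months, against 423 and 513 CPM at 37 dpf (log2 fold change -1.75 ± 0.32, SE). Its relative fabp1b.2 had no UMI at 5 months, against 37.1 and 519 CPM at 37 dpf, at least 68.0-fold lower, although the 37 dpf plates were far from each other.

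Of 21 tested lysosomal genes 1 was higher and 2 lower, and of 13 tested peptide and amino acid transporters 2 were higher and 1 lower, beside 14.6% higher and 13.1% lower among all genes tested. The cathepsin gene ctsf was higher, with 84.2 and 103 CPM at 5 months, against 32.7 and 31.4 CPM at 37 dpf. The cathepsin gene ctsla, with 155 and 195 CPM at 5 months, against 523 and 392 CPM at 37 dpf, and the lysosomal cholesterol transport gene npc1, with 18.2 and 15.3 CPM at 5 months, against 100.3 and 49.0 CPM at 37 dpf, were lower. The amino acid transporter gene slc38a2 had 105 and 72.7 CPM at 5 months, against 21.8 and 29.4 CPM at 37 dpf, and slc7a8a had 214 and 222 CPM at 5 months, against 116 and 133 CPM at 37 dpf, and both were called higher. In fits with a plate fewer, the adjusted p of edgeR rose above 0.05 for apoeb, apoc1, ctsla, npc1, slc38a2 and slc7a8a without 5-month plate 1 (0.115 to 0.262), for apoc1, ctsf, ctsla, npc1 and slc7a8a without 5-month plate 2 (0.0675 to 0.21), for ctsla, npc1 and slc7a8a without 37 dpf plate 1 (0.169 to 0.343) and for apoeb and slc7a8a without 37 dpf plate 2 (0.0997 to 0.0999).

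A gene detected at a single age could reach the count filter only through that age, so the counts above describe tested genes and do not speak for all members of a list. Of the 9 genes of myelinating glia 1 was tested and not called.

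**Figure D4:**
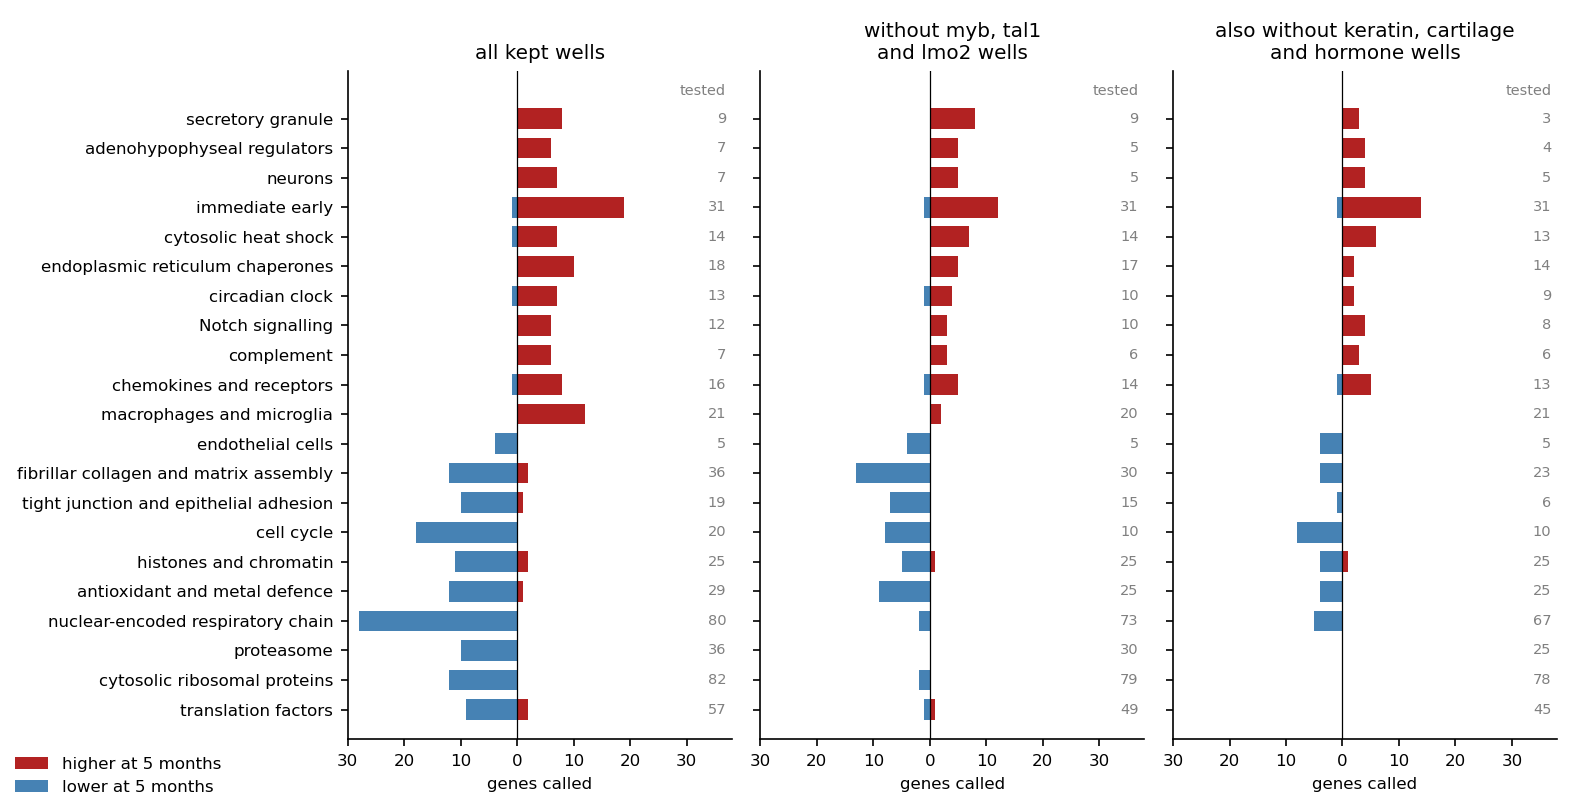
Number of genes called higher (right of 0) and lower (left of 0) at 5 months in 21 gene lists, in all kept wells, without the myb, tal1 and lmo2 wells, and also without keratin, cartilage and hormone wells; grey figures give the genes tested. The cell cycle bars stand at 18 lower of 20, 8 of 10 and 8 of 10, and the ribosomal protein bars at 12 of 82, 2 of 79 and 0 of 78.

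Across the 3 sets of wells some lists held calls throughout and others did not. Of the few endothelial genes tested 4, 4 and 4 were lower with all wells, without the myb, tal1 and lmo2 wells and in the remaining wells. Immediate early genes were higher in 19, 12 and 14, and heat shock genes in 7, 7 and 6. Adenohypophyseal regulators were higher in 6, 5 and 4. Proteasome genes were lower in 10, 0 and 0, and splicing genes in 9, 2 and 0. Macrophage genes were higher in 12, 2 and 0. The number of genes tested fell with the wells, from 4327 to 2919 and 2279, and the share called fell too. Over all genes tested 14.6%, 9.9% and 7.94% were higher in the 3 sets, and 13.1%, 9.76% and 5.79% lower. The list counts alone therefore do not rank the lists, and the difference between the sets was not itself tested.

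**Figure D5:**
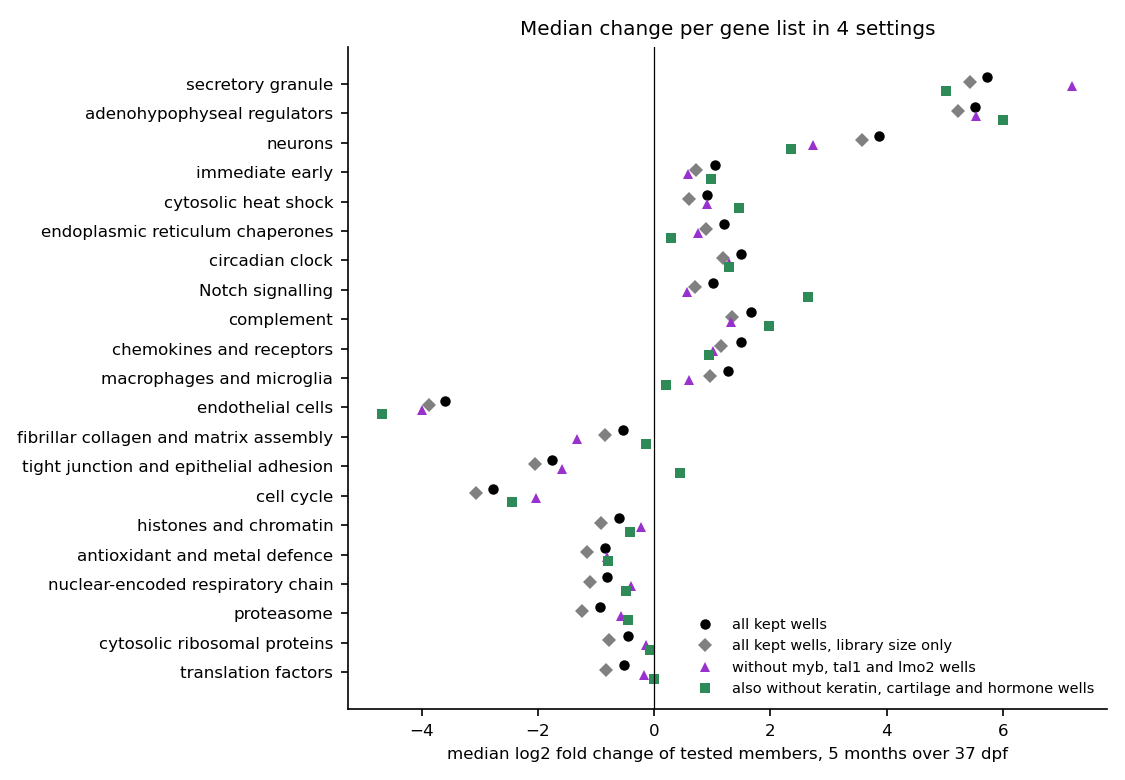
Median fitted log2 fold change of 5 months over 37 dpf (horizontal axis) of the tested members of 21 gene lists in 4 settings: all kept wells with TMM scaling, all kept wells with library-size scaling, and the 2 smaller sets of wells. The median of the ribosomal proteins is -0.45 with TMM scaling, -0.77 with library-size scaling and -0.07 in the remaining wells, and that of the endothelial genes is -3.60, -3.88 and -4.68.

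Further genes led the calls in the remaining wells and were chosen after their values were seen; the levels given for them are those in all kept wells. Higher at 5 months was the steroid enzyme gene hsd17b3, with 68.3 and 53.5 CPM at 5 months, against no UMI at 37 dpf, at least 20.3-fold, and 97.7% of its UMIs in wells of none of the 4 kinds. The gene auts2b had 72.8 and 45.9 CPM at 5 months, against 2.18 and 0 CPM at 37 dpf, a ratio of 60.8 (95% counting interval 10.4 to 2457). The neurotrophin receptor gene ntrk3a had 34.1 and 34.4 CPM at 5 months, against 2.18 and 3.92 CPM at 37 dpf, a ratio of 11.1 (95% counting interval 3.36 to 57.4). All 3 were at most 4 CPM on each 37 dpf plate. The neuronal gene stmn2a had 68.3 and 30.6 CPM at 5 months, against 0 and 5.88 CPM at 37 dpf, a ratio of 17.5 (95% counting interval 5.56 to 88.7), and the transcription factor gene egr2b 164 and 145 CPM at 5 months, against 4.36 and 0 CPM at 37 dpf, a ratio of 76.1 (95% counting interval 20.6 to 636). The cytochrome P450 gene cyp1c2 had 15.9 and 49.7 CPM at 5 months, against no UMI at 37 dpf, at least 9.22-fold higher, and cyp27c1 had 27.3 and 15.3 CPM at 5 months, against 6.54 and 3.92 CPM at 37 dpf (log2 fold change 2.31 ± 0.70, SE; DESeq2 adjusted p = 0.0928), with all its 37 dpf UMIs in cartilage wells. Single plates carried some calls: the edgeR adjusted p rose above 0.05 for cyp27c1 and stmn2a without 5-month plate 1 (0.198 to 0.242), for cyp27c1 without 5-month plate 2 (0.0558), for cyp27c1 without 37 dpf plate 1 (0.0662) and for cyp27c1 without 37 dpf plate 2 (0.15).

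Lower in the remaining wells was the sulfate transporter gene slc26a1, with no UMI at 5 months, against 47.9 and 52.9 CPM at 37 dpf, at least 11.8-fold. None of its 37 dpf UMIs lay in keratin or cartilage wells. They came from 5 and 3 wells of the 37 dpf plates, and a single well held 45.5% and 48.1% of them. The gene emid1 had no UMI at 5 months, against 37.1 and 76.4 CPM at 37 dpf, at least 13.5-fold lower. The stress hormone-binding protein gene crhbp had 47.8 and 22.9 CPM at 5 months, against 122 and 333 CPM at 37 dpf, with a log2 fold change of -2.31 ± 0.52 with all wells and -3.42 ± 0.57 in the remaining wells. These 3 were lower on both 5-month plates than on either 37 dpf plate. The tyrosine-degrading enzyme gene hpdb had 11.4 and 3.82 CPM at 5 months, against 192 and 151 CPM at 37 dpf (-4.27 ± 0.63 in the remaining wells), and the apolipoprotein gene apof 6.83 and 11.5 CPM at 5 months, against 238 and 174 CPM at 37 dpf (-4.14 ± 0.76 there). The endocytic adaptor gene dab2 had 9.11 and 3.82 CPM at 5 months, against 45.8 and 37.2 CPM at 37 dpf (-4.01 ± 0.80 there). The hyaluronidase gene hyal4 had 2.28 and 0 CPM at 5 months, against 41.4 and 29.4 CPM at 37 dpf, a ratio of 37 dpf over 5 months of 24.6 (95% counting interval 4.12 to 999), and mibp had 2.28 and 7.65 CPM at 5 months, against 56.7 and 51.0 CPM at 37 dpf, a ratio of 12.5 (95% counting interval 4.06 to 62.7). The replication genes top2a, with 0 and 3.82 CPM at 5 months, against 47.9 and 112 CPM at 37 dpf, and rrm2, with 9.11 and 0 CPM at 5 months, against 211 and 90.2 CPM at 37 dpf, were lower there as well. The edgeR adjusted p rose above 0.05 for dab2, hyal4 and mibp without 5-month plate 1 (0.142 to 0.2), for crhbp, dab2 and hyal4 without 5-month plate 2 (0.0627 to 0.167), for mibp without 37 dpf plate 1 (0.137) and for dab2, hyal4, mibp and top2a without 37 dpf plate 2 (0.071 to 0.213).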

How the data were processed

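Single sorted cells in 384-well plates were profiled by MARS-seq. The authors deposited raw UMI counts per gene and well, with no normalization. Per the submitters' processing notes the build was danRer10 and the tools included bcl2fastq 2.15.0.4 and Seurat 3.1.5, with no roles stated. The aligner, annotation and strand setting are not given in the sources used here. How paralogues share reads is therefore unknown.

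Wells of at least 400 UMIs with under 0.5% globin were summed per plate, without spike-in rows (ERCC); no doublet caller was run. The 6 plates, 2 for each of the 3 ages, entered 1 fit with edgeR 4.0.16 in R 4.3.3 (TMM scaling, its default filter on low counts, the quasi-likelihood test, Benjamini-Hochberg adjustment over all genes tested). The contrast was 5 months minus 37 dpf. SE is the log2 fold change divided by the square root of F. DESeq2 1.42.0 was an alternative. Summing and thinning used Python 3.11.15, pandas 2.3.3 and numpy 2.4.6, and counting intervals (exact, 95%) scipy 1.17.1. Thinned wells kept the mitochondrial and AC024175 rows, and their averages had no TMM scaling, whereas the calls did. A gene with no UMI over both plates of an age was set to 3 counts there for "at least" folds, and ratios are given for 1 to 3 counts. Intervals and floors cover counting error only. Tested on simulated counts for the 4327 genes, the fit recovered 67% of 200 genes changed by 2 log2 units, and 4.96% of 141 calls were false. Simulated plates were independent draws, whereas the plates of an age here share a pool, and far more genes were called. The false share of the simulation therefore does not carry over to these calls.

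Named genes were called outside the 4 excluded lists, had plates of the 2 ages apart, at least 5 UMIs per plate on average at the higher age, a gene symbol, and no well with over 50% of their UMIs on a plate of that age, which left 951 genes. Mitochondrial, AC024175 and ribosomal protein rows were not eligible. Contig-based names such as CABZ01012141.2 passed the check for a gene symbol. The 12 largest changes in each direction were named, with slc15a2 and up to 3 called genes per list and direction by smallest p; 1 gene among the increases is not reported here. The comparison, the members and the gene lists were chosen with earlier results of these data known. Alternatives changed the scaling, filters, well limits, depth per well, number of wells, kinds of wells and plates.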

Additional observations from a re-analysis of the deposited data

How the results depend on the processing

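Of all called genes (1198) and those outside the 4 lists (1140), DESeq2 called 650 and 601, a globin limit of 0.1% left 254 and 219, thinning every well to 400 UMIs left 237 and 202, and equal numbers of wells (106 per plate) left 584 and 536. Fewer genes were tested in the last 3 settings. The limit of 0.1% kept only 15 of 180 and 50 of 228 wells at 37 dpf, and all 257 and 174 wells at 5 months. Settings chosen after seeing the data gave 0 and 0 in macrophage-rich wells alone, 2231 and 2170 with the blood wells included, 574 and 530 without the myb, tal1 and lmo2 wells, and 313 and 285 in the remaining wells. With 1 of the 6 plates left out the counts ran from 494 to 1523 and from 444 to 1453. Between 4330 and 6809 genes were tested in these fits. The lone plate of an age is then assumed to vary like the others. Every other alternative gave counts within 1.5 times of 1198 and 1140.

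Of the 159 named genes none changed sign under an alternative that kept all kinds of wells and in which it was tested. Signs turned for col1a1a (0.35), sparc (0.74) and tmsb1 (0.56) without keratin, cartilage and hormone wells, and for sparc (0.079), tmsb1 (0.065) and eif4bb (0.17) in the remaining wells. They also turned for grn1 (-0.15), mt-co1 (-0.32) and eif5a2 (0.13) in macrophage-rich wells alone and for apoeb (-1.30) without those wells. All are log2 fold changes of 5 months over 37 dpf, and the cause was not tested. No paired analysis was possible because plate numbers follow accession order and each age is 1 pool of fish spread over its plates. A count of 0 on a 5-month plate allows up to 11.5 CPM, so lower levels could not be told from absence there.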
